A study of Mus musculus with 33 samples.

Results

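The miRNAs of the miR-17-92 cluster and of its paralog, the miR-106a-363 cluster, were followed in mouse lung after instillation of carbon black nanoparticles. The members were chosen by name, as the 9 array names without a star that belong to either cluster: mmu-miR-17, mmu-miR-18a, mmu-miR-19a, mmu-miR-20a, mmu-miR-19b, mmu-miR-92a, mmu-miR-106a, mmu-miR-20b and mmu-miR-363. Of the 650 miRNA names on the array, 8 were members, since mmu-miR-106a had no probe of that name among those used here. Only miRNAs that 4 or more arrays of some group held above background were tested, and these were 6 members among 172 miRNAs in all: miR-18a, miR-19a, miR-20a, miR-19b, miR-92a and miR-20b. The filter therefore removed miR-17 and miR-363, and counts below refer to the 6 that passed it.

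The mice were C57BL/6 females, an inbred strain, and lung RNA was measured on 33 one-colour arrays, with 1 mouse per array. Exposed mice had been given 0.162 mg of the nanosized carbon black Printex 90, suspended in vehicle, through the windpipe, and their lungs were taken after 1 day (n = 6), 3 days (n = 4) or 28 days (n = 5). Control mice had been given the vehicle alone, water with 0.9% NaCl and 10% lung lavage fluid freed of cells, with lungs taken at the same times (n = 6 each). All groups thus shared the instillation and the lavage fluid, and untreated mice were not analysed here. The tissue was whole lung, in which fewer cells of a type and less RNA per cell cannot be told apart.

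A miRNA cluster is a set of hairpins cut from 1 primary transcript, so its members share a promoter, although their mature levels can still differ through processing and turnover. The miR-17-92 cluster is transcribed under the control of MYC and E2F factors, is amplified in some lymphomas and lung cancers, and is needed for normal lung growth in mouse embryos. Its members pair with target transcripts mainly through the seed, bases 2 to 8 of the mature strand. Known targets include Cdkn1a and the pro-apoptotic Bcl2l11.

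The mature sequences are given to show which members share a seed and how far seed mates differ outside it. Each is written 5′ to 3′ from RefSeq (GRCm38.p6) with the seed in capitals, and the array names were matched to the arm of the hairpin that the unstarred name denotes. In all, 4 seeds occurred among the 9 members. The first was AAAGUGC, held by 4 members.
miR-17: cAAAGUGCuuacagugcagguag
miR-20a: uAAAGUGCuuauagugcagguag
miR-106a: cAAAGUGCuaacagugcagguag
miR-20b: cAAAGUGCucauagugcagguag
The miR-18 seed, AAGGUGC, was held by 1 member.
miR-18a: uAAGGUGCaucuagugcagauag
The miR-19 seed, GUGCAAA, was held by 2 members.
miR-19a: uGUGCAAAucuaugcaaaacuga
miR-19b: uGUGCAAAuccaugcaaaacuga
The miR-92 seed, AUUGCAC, was held by 2 members.
miR-92a: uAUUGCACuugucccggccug
miR-363: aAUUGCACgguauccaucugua

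Outside the seed the mates that hold AAAGUGC or GUGCAAA were close. miR-92a and miR-363, the AUUGCAC mates, are 21 and 22 bases long and were not compared base by base. A substitution is written with the first miRNA's base, the position counted from 1 at the 5′ end, and the second miRNA's base. From miR-17 to miR-106a the only substitution was U10A. From miR-17 to miR-20a the substitutions were C1U and C12U, and from miR-20a to miR-20b they were U1C and U10C. From miR-19a to miR-19b the only substitution was U11C. How far a probe for 1 of these miRNAs also binds a mate was not tested. Among all mature mouse miRNAs of the RefSeq table, AAAGUGC was the seed of 7, AUUGCAC of 6, and GUGCAAA and AAGGUGC of 2 each.

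In GRCm38.p6 the 6 hairpins of the miR-17-92 cluster lie at chr14:115043671-115044506 on the plus strand, within 836 bases, in the order miR-17, miR-18a, miR-19a, miR-20a, miR-19b, miR-92a. The 6 hairpins of the miR-106a-363 cluster lie at chrX:52741693-52742567 on the minus strand, within 875 bases, in the order miR-106a, miR-18b, miR-20b, miR-19b, miR-92a, miR-363. The annotation places a long noncoding RNA gene over part of each cluster, Mir17hg at chr14:115044390-115046728 and Kis2 at chrX:52742563-52744593. The mature strands of miR-19b and miR-92a are the same from both loci, so their signal is a sum over 2 chromosomes. The signals of miR-17, miR-18a, miR-19a and miR-20a are assigned to chromosome 14, and those of miR-20b and miR-363 to chromosome X.

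Members of the same cluster differed in whether they were seen at all. miR-19b, miR-20a and miR-92a were above background on 33 of 33 arrays. miR-19a and miR-20b were above background on 32 of 33, each missing on the same array, control day 1 replicate 27. miR-18a was above background on 14 of 33. In exposed lungs these were 4 of 6 arrays at day 1, 2 of 4 at day 3 and 1 of 5 at day 28, and in control lungs 1 of 6, 1 of 6 and 5 of 6. miR-17 was above background on 0 of 33 arrays with either of its 2 probes, whose background-subtracted signal before scaling was -5.56 to 0.148 units. The signal of miR-20a, its seed mate in the same cluster, was 24.9 to 185 units with the brighter probe. miR-363 was above background on 0 of 33 as well, at -2.58 to 2.27 units over its 2 probes. Signals of different probes cannot be compared as levels, and a probe below background gives no statement on whether the miRNA was present.

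**Figure D1:**
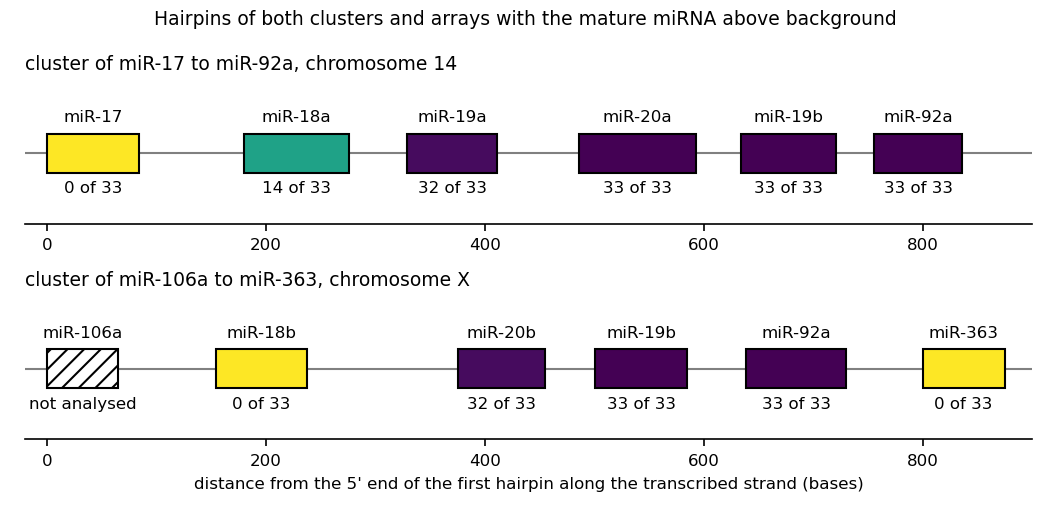
The hairpins of both clusters drawn to scale along the transcribed strand (x axis, bases from the 5′ end of the first hairpin), coloured from yellow to dark by the number of the 33 arrays on which the mature miRNA was above background. miR-17 and miR-363 were above background on 0 of 33, where miR-17 sits beside miR-18a (14 of 33) and miR-363 beside miR-92a (33 of 33). miR-106a (hatched) was not analysed, and the counts for miR-19b and miR-92a are of the summed signal from both loci.

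Array brightness, which bears on detection, differed between arrays. The 75th percentile of signal before scaling ranged from 187 to 1211 units over the 33 arrays, and the arrays held 99 to 193 of 611 mouse miRNAs above background. At day 1 it averaged 654 ± 95.6 units in exposed and 472 ± 288 units in control lungs (SD, n = 6 each), and at day 28 it averaged 653 ± 285 units in exposed (SD, n = 5) and 956 ± 215 units in control lungs (SD, n = 6). At days 1 and 28 the brighter group also had the larger share of arrays with miR-18a above background. At day 3 it did not, since exposed arrays averaged 628 ± 117 units (SD, n = 4) with 2 of 4 above background, and control arrays 709 ± 310 units (SD, n = 6) with 1 of 6. The part of brightness in these counts was not tested. On each slide the exposed arrays had places that control arrays never had, and an effect of place cannot be told apart from one of exposure. The slide numbered 1 carried control day 1 replicate 1, control day 3 replicate 2, exposed day 1 replicate 3 and exposed day 3 replicate 4. For miR-20a and miR-92a these were the 4 highest of the 33 arrays, and slide 1 held no array of day 28. Some of the results that rest on these arrays are also given without them. The changes of miR-92a are given only with them. So are those of miR-20a, other than the change from day 1 to day 28 in exposed lungs.

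All levels that follow are log2 of scaled signal, on which a difference of 1 is a doubling, and each level is compared only with the same miRNA on other arrays. miR-20a averaged 6.89 ± 0.085 in exposed lungs at day 1 (SD, n = 6), 6.86 ± 0.12 at day 3 (n = 4) and 6.59 ± 0.12 at day 28 (n = 5). In control lungs it averaged 6.75 ± 0.26, 6.76 ± 0.18 and 6.61 ± 0.020 (SD, n = 6 each). The 2 highest means of miR-20a, miR-19a and miR-18a were thus those of exposed lungs at days 1 and 3. For miR-19a and miR-20a the lowest mean was that of exposed lungs at day 28. miR-92a had the opposite head of the order, with 8.03 ± 0.23 in control lungs at day 1 above 8.03 ± 0.14 in exposed lungs at day 1, and its lowest mean was 7.75 ± 0.077 in control lungs at day 28. Of the 30 gaps between neighbouring group means of the 6 members, 1 was larger than the larger SD of the 2 groups, that of miR-20b between exposed lungs at day 3 (5.65 ± 0.047) and control lungs at day 28 (5.60 ± 0.047).

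**Figure D2:**
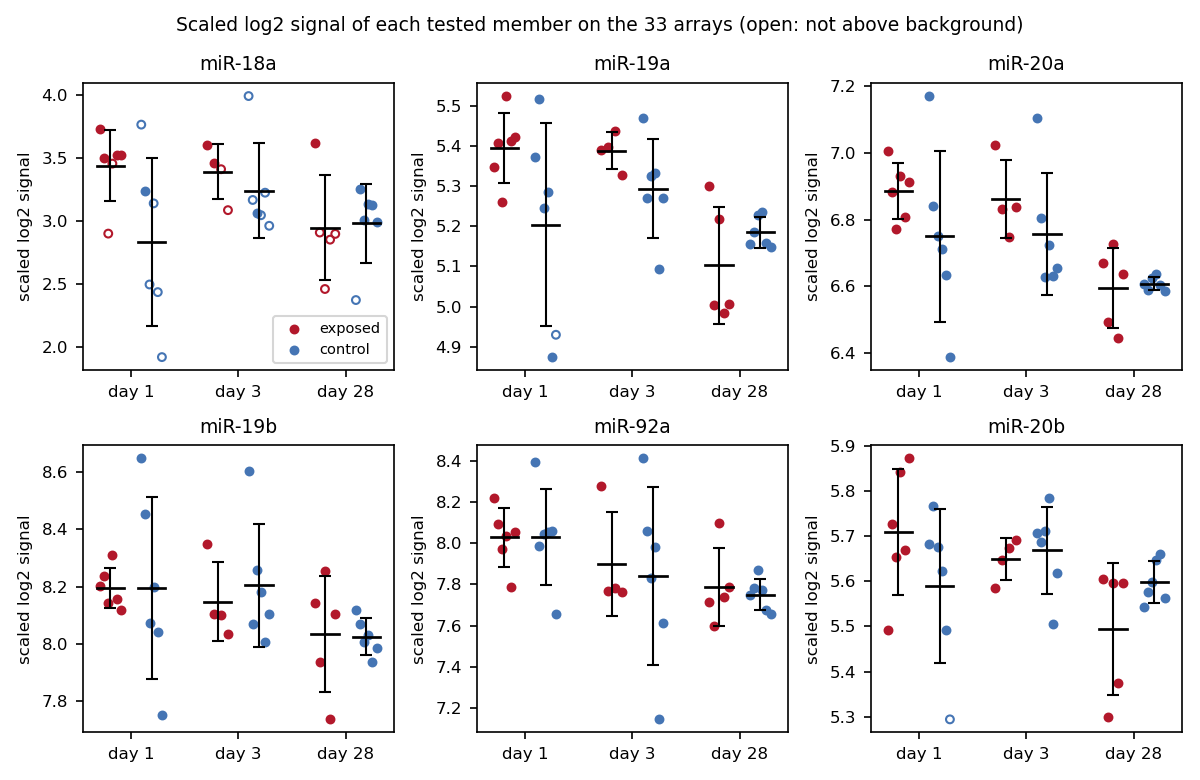
Scaled log2 signal (y axis) of the 6 tested members on each array, by day, exposed (red) left of control (blue). Lines and bars are the mean and SD of 4 to 6 mice and open points were not above background; control arrays of day 28 lie close together, at 6.58 to 6.64 for miR-20a, and those of day 1 spread over 6.39 to 7.17.

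The first question was whether carbon black changed these miRNAs relative to vehicle at each day. At day 1 limma called 0 of the 6 members at an adjusted p under 0.05, where it called 0 of all 172 miRNAs tested (0%). By unadjusted p under 0.05, miR-18a and miR-19a (2 members) passed as higher and 0 as lower, where 5.23% of all tested miRNAs were higher and 9.3% passed in either direction. The log2 change was above 0 for 5 of 6 members and for 60 of all 172 tested miRNAs, with a member median of 0.13 beside -0.097 over all tested. The groups overlapped for all 6 members, and 0.581% of all tested miRNAs had groups that did not.

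miR-18a, whose level lay near background, was 2.90 at the lowest, 3.51 at the median and 3.73 at the highest of 6 exposed lungs at day 1, against 1.92, 2.82 and 3.76 in 6 control lungs. The exposed lungs sat in the upper part of the control range, and 1 control array of slide 1 was the highest of both groups. The log2 change was 0.60 ± 0.25 (SE; limma adjusted p = 0.457), or 1.52-fold, and in 5 of the 6 same-slide pairs the exposed array had the higher value. Without slide 1 it was 0.73 (adjusted p = 0.139). With a floor of 10 in place of 1 it was 0.11, and with normexp background correction it was -0.44, so neither size nor sign was stable for this dim member.

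miR-19a, of chromosome 14, was 5.26 at the lowest, 5.41 at the median and 5.52 at the highest in exposed lungs at day 1, against 4.87, 5.27 and 5.52 in control lungs. The 3 lowest values were all of control arrays, and the upper ends met. Its log2 change was 0.19 ± 0.090 (SE; adjusted p = 0.485), or 1.14-fold, with the exposed value above in 4 of the 6 same-slide pairs. Its seed mate miR-19b, which also comes from the X chromosome, had a log2 change of 0.00053 ± 0.11 (adjusted p = 0.996), with a 95% interval of -0.23 to 0.23.

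The AAAGUGC members had nearly the same day 1 change from each chromosome. miR-20a changed by 0.14 ± 0.094 (SE; adjusted p = 0.516) and miR-20b by 0.12 ± 0.080 (adjusted p = 0.511), and neither passed the test. Same-slide pairs had the higher miR-20a in the exposed lung in 5 of 6, and the higher miR-20b in 3 of 6. miR-92a had a log2 change of -0.0035 ± 0.14 (adjusted p = 0.995), with a 95% interval of -0.29 to 0.29, with 2 of 6 pairs higher. Set against the median change of all tested miRNAs, miR-19a, miR-20a and miR-20b lay above it under 7 of 7 ways of scaling the arrays. For miR-18a, miR-19b and miR-92a this was 6 of 7. The change itself turned below 0 in 1 of 14 other settings for miR-19a (-0.34) and for miR-20b (-0.29). For miR-20a it did so in 1 of 15 (-0.17).

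At day 3, with 4 exposed and 6 control lungs, limma called 0 of 6 members and 0 of 172 miRNAs (0%), and 0 members passed an unadjusted p under 0.05, where 1.16% of all tested did. The member median was 0.076 beside -0.036 over all tested. Changes ranged from -0.057 for miR-19b to 0.15 for miR-18a, all with an adjusted p of 0.996. miR-19a was 5.39, 5.40, 5.44 and 5.33 on the 4 exposed arrays, inside the control range of 5.09 to 5.47. 0 members and 0% of all tested miRNAs had groups that did not overlap.

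At day 28 limma again called 0 of 6 members and 0 of 172 miRNAs (0%), and 0 members passed an unadjusted p under 0.05, where 7.56% of all tested did. The member median was -0.024 beside -0.034 over all tested, and 4 of 6 members were below 0, as were 97 of the 172 tested. miR-20b had the lowest change, -0.10 ± 0.084 (SE; adjusted p = 0.919). It was 5.61, 5.30, 5.60, 5.37 and 5.60 on the 5 exposed arrays, against 5.54 to 5.66 in control lungs. The 2 lowest arrays were exposed and the other 3 lay inside the control range, and 4 of the 5 same-slide pairs had the lower miR-20b in the exposed lung. For miR-18a and miR-19a this was 4 of 5 too. All 6 members overlapped between groups, and 1.74% of all tested miRNAs did not.

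**Figure D3:**
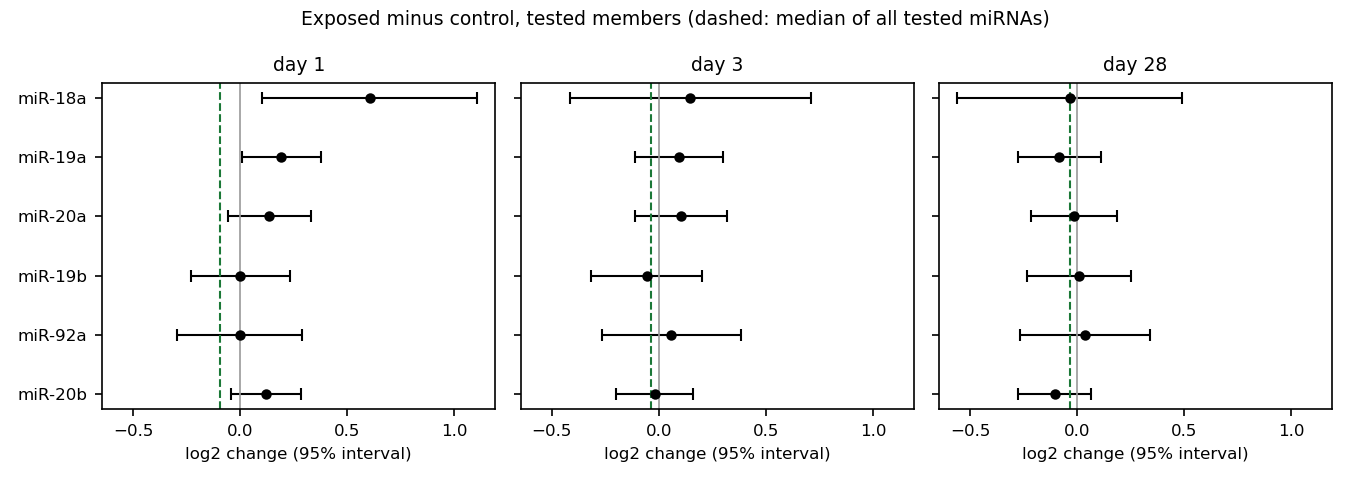
Log2 change (x axis), exposed minus control, of the 6 tested members at days 1, 3 and 28, with 95% intervals from the limma fit. At day 1 the intervals of miR-18a and miR-19a lie above 0 before adjustment, and at days 3 and 28 every interval spans 0; the dashed line is the median of all 172 tested miRNAs.

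Averaged over the 3 days, the exposure effect called 0 of 6 members and 1 of 172 miRNAs (0.581%), and 0 members passed an unadjusted p under 0.05, where 9.88% did. The 1 call was miR-689, which is no member and is named after its value was seen (log2 change 1.32, adjusted p = 0.0333). Mean effects of the members ranged from -0.015 ± 0.069 (SE) for miR-19b to 0.24 ± 0.15 for miR-18a. For miR-92a the brighter probe gave 0.030 ± 0.087 (adjusted p = 0.921), while its second, dimmer probe, above background on 33 of 33 arrays, gave 0.30 (adjusted p = 0.0313). That probe was chosen as an alternative after the data were seen.

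Whether the exposure change itself differed between days was tested as an interaction. From day 1 to day 28 the difference passed for 0 of 6 members and 0 of 172 miRNAs (0%). At an unadjusted p under 0.05, 1 member had a lower change at day 28, miR-19a, where 3.49% of all tested were lower and 7.56% passed in either direction. The difference for miR-19a was -0.27 ± 0.13 (SE; adjusted p = 0.572). That of miR-20b was -0.22 ± 0.12 (adjusted p = 0.708) and that of miR-18a was -0.64 ± 0.36 (adjusted p = 0.733). For miR-20a it was -0.15 ± 0.14 (adjusted p = 0.925). miR-19b and miR-92a, the members with 2 loci, differed by 0.0098 ± 0.16 and 0.041 ± 0.21 (adjusted p = 0.983 and 0.977). From day 1 to day 3 the difference called 0 members and 0% of miRNAs, and 0 members passed an unadjusted p under 0.05, where 2.33% did.

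By the member median, the largest change was between days within the exposed lungs. It was not the largest for each member, since miR-18a changed more between exposed and control lungs at day 1. miR-19b and miR-92a changed more between days 1 and 28 in control lungs. In exposed lungs all 6 members were lower at day 28 than at day 1, as were 127 of all 172 miRNAs tested. The member median log2 change was -0.27 beside -0.13 over all tested. limma called 0 members and 0 miRNAs (0%). At an unadjusted p under 0.05, 3 members were lower, miR-19a, miR-20a and miR-20b, where 14.5% of all tested were lower and 15.7% passed in either direction. These exposed day 1 lungs are the same ones that enter the day 1 comparison with controls, so the comparisons are not independent.

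miR-20a, the chromosome 14 member with the AAAGUGC seed, was 6.67, 6.49, 6.73, 6.44 and 6.64 in exposed lungs at day 28, against 6.77 at the lowest, 6.90 at the median and 7.01 at the highest in exposed lungs at day 1. Every exposed lung of day 28 lay below every exposed lung of day 1. Groups that did not overlap, in either direction, were found for 2.33% of all tested miRNAs. The log2 change was -0.29 ± 0.099 (SE; adjusted p = 0.149), or 1.22-fold lower. A random block for slide gave -0.27 (adjusted p = 0.0452), and without slide 1 it was -0.27 (adjusted p = 0.0298), so both of these passed the threshold that the fit over all arrays missed. With slide as a fixed block it was -0.25 (adjusted p = 0.0712). The second, dimmer probe gave -0.24 (adjusted p = 0.173).

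miR-19a was 5.30, 5.00, 5.22, 4.98 and 5.01 in exposed lungs at day 28, against 5.26 at the lowest, 5.41 at the median and 5.52 at the highest in exposed lungs at day 1. The groups overlapped through a single day 28 array, replicate 8. The log2 change was -0.29 ± 0.094 (SE; adjusted p = 0.137), and it was -0.30 under the random block (adjusted p = 0.0425) and -0.30 without slide 1 (adjusted p = 0.0626). Its second probe, above background on 26 of 33 arrays, gave -0.28 (adjusted p = 0.581).

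miR-20b, the X chromosome member, was 5.61, 5.30, 5.60, 5.37 and 5.60 in exposed lungs at day 28, against 5.49 at the lowest, 5.70 at the median and 5.87 at the highest in exposed lungs at day 1. The lowest day 1 value was the array of slide 1, and the other day 1 arrays lay above all of day 28. The log2 change was -0.21 ± 0.084 (SE; adjusted p = 0.155), and -0.26 without slide 1 (adjusted p = 0.0626). Its second probe, above background on 29 of 33 arrays, gave -0.060 (adjusted p = 0.889). The other 3 members had wider errors. miR-18a changed by -0.49 ± 0.26, miR-92a by -0.24 ± 0.15 and miR-19b by -0.16 ± 0.12 (SE; adjusted p = 0.372, 0.451 and 0.562). At day 3 the exposed lungs differed little from those of day 1, with changes of -0.13 to -0.0074. limma called 0 members and 0% of all tested there, and 0 members passed an unadjusted p under 0.05, where 1.74% did.

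**Figure D4:**
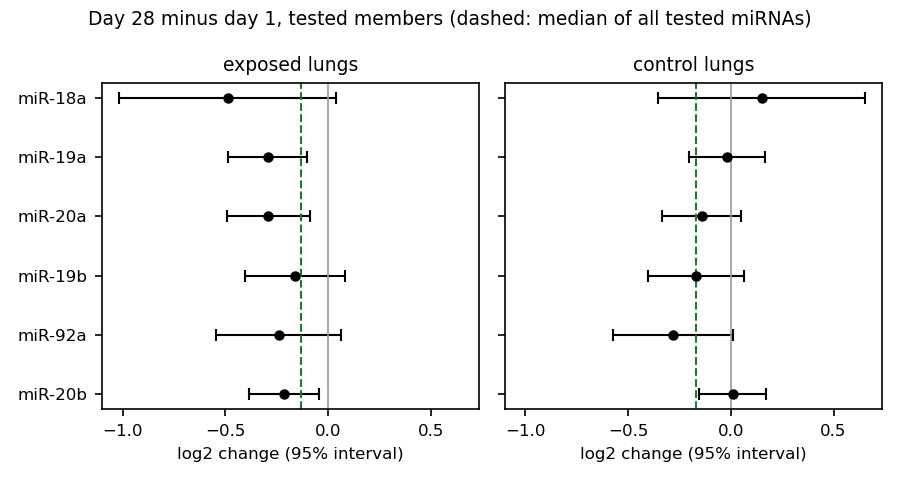
Log2 change (x axis) from day 1 to day 28 within exposed lungs (left) and within control lungs (right), with 95% intervals. In exposed lungs all 6 members lie below 0, and in control lungs miR-18a and miR-20b lie above 0; the dashed line is the median of all 172 tested miRNAs, -0.13 in exposed and -0.17 in control lungs.

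The same interval was compared within control lungs. From day 1 to day 28 limma called 0 of 6 members and 12 of 172 miRNAs (6.98%), 1 higher and 11 lower. Without adjustment, at p under 0.05, 0 members passed, where 24.4% of all tested did, and 0 members had groups that did not overlap, where 2.33% did. The member median was -0.080 beside -0.17 over all tested. miR-92a had the lowest change, -0.28 ± 0.14 (SE; adjusted p = 0.210), followed by miR-19b at -0.17 ± 0.11 and miR-20a at -0.14 ± 0.094 (adjusted p = 0.337 and 0.334). miR-19a and miR-20b, both lower in exposed lungs at an unadjusted p under 0.05, changed by -0.019 ± 0.090 and 0.0092 ± 0.080 in control lungs (adjusted p = 0.911 and 0.948). The test of that difference between exposed and control lungs is the interaction given above, which neither passed. miR-20a, lower at day 28 in both exposed and control lungs, did not pass it either. From day 1 to day 3 limma called 0 members and 0% of all tested in control lungs, and 0 members passed an unadjusted p under 0.05, where 5.23% did.

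The spread among control lungs changed with the day. miR-20a was 6.58 to 6.64 over the 6 control lungs of day 28 (SD 0.020), while it was 6.39 to 7.17 over the 6 control lungs of day 1 (SD 0.26). The highest of the day 1 arrays lay on slide 1 and the lowest was replicate 27, the array on which miR-19a and miR-20b were not above background. miR-19a had an SD of 0.039 at day 28 and 0.25 at day 1, and miR-19b had 0.065 and 0.32. The SDs of these 2 groups were not compared by a test. The day 28 control arrays were also the brightest group.

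Strands and relatives of the clusters gave further context. Of the passenger strands, which are the other arm of each hairpin, miR-17* alone was above background on some arrays, 18 of 33, although miR-17 itself was above background on none. It was above background on 5 of 6 exposed and 0 of 6 control arrays at day 1, and no fold change could be bounded, since it was too dim. At day 3 it was so on 3 of 4 exposed and 3 of 6 control arrays, and at day 28 on 5 of 6 control arrays. These counts did not follow its level, which averaged 3.48 in control lungs at day 1 and 3.30 at day 28. Exposed arrays of day 1 were also brighter on average than control arrays. How many of all miRNAs had such a split was not counted. The fitted day 1 change of miR-17* was 0.23 ± 0.21 (SE; adjusted p = 0.632). miR-18a*, miR-19a*, miR-20a*, miR-92a* and miR-20b* were above background on 0 of 33 arrays. So were miR-18b of the X cluster and the seed relatives miR-92b and miR-367, while miR-32 was so on 3 of 33. miR-19b*, miR-106a* and miR-363* had no probe of that name among those used here.

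The third paralog cluster, miR-106b, miR-93 and miR-25 on chromosome 5, holds the AAAGUGC seed in miR-106b and miR-93 and the AUUGCAC seed in miR-25, and all 3 were above background on 33 of 33 arrays. limma called 0 of these 3 in any exposure contrast. In same-slide pairs the exposed lung had the higher miR-93 in 4 of 4 at day 3 (0.19 ± 0.098, SE; adjusted p = 0.996), and the lower miR-25 in 5 of 5 at day 28 (-0.21 ± 0.12, adjusted p = 0.742). On the other days, and for miR-106b on every day, the pairs went both ways. How many of all tested miRNAs had pairs that all went 1 way was not counted. In exposed lungs miR-25, the seed mate of miR-92a, was 6.09 to 6.51 at day 28 and 6.56 to 7.00 at day 1, groups that did not overlap, with a log2 change of -0.30 ± 0.12 (SE; adjusted p = 0.178). Such groups were found for 2.33% of all tested miRNAs. In the same contrast miR-106b changed by -0.067 ± 0.13 and miR-93 by -0.12 ± 0.092 (adjusted p = 0.856 and 0.575).

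Markers of other cell types moved alongside some of these contrasts. At day 1 all 3 markers on the myeloid list were higher in exposed lungs, led by miR-223 of neutrophils at 0.82 ± 0.21 (SE; adjusted p = 0.0994). The summed signal of that list was 866 to 2298 units in exposed and 572 to 1812 units in control lungs. Of the 3 lymphoid markers tested, 2 were below 0 at day 1, miR-342-3p at -0.28 and miR-181b at -0.18, and miR-181a was at 0.092. In exposed lungs miR-223 was lower at day 28 than at day 1 by a log2 change of -0.87 ± 0.22 (adjusted p = 0.0847), while the other 2 of the 3 myeloid markers, miR-142-3p and miR-142-5p, changed by 0.060 and 0.057. The summed myeloid signal was 995 to 2094 units in exposed lungs at day 28. All 3 markers of heart and skeletal muscle, miR-1, miR-133a and miR-133b, were lower in that contrast, by -1.93, -1.67 and -1.77, and their summed signal was 27.7 to 77.0 units at day 28 and 32.0 to 971 units at day 1. The endothelial marker miR-126-3p changed by -0.27 ± 0.10 (SE; adjusted p = 0.155) in that contrast, and miR-126-5p by 0.48 ± 0.65. The summed endothelial signal was 4203 to 6152 units in exposed lungs at day 28 and 5518 to 6711 units at day 1. All 3 erythroid markers were below 0, miR-144 at -0.41, miR-486 at -0.27 and miR-451 at -0.23, and their summed signal was 2936 to 8803 units at day 28 and 4760 to 9094 units at day 1. All 5 epithelial markers were below 0 as well, by -0.14 to -0.024, with 1050 to 1483 units at day 28 and 1085 to 1549 units at day 1. Of the 3 lymphoid markers tested, 2 were above 0 in that contrast, miR-342-3p at 0.21 and miR-181b at 0.15, and miR-181a was at -0.041. Their list summed to 104 to 166 units at day 28 and 112 to 156 units at day 1. Of all 172 tested miRNAs, 127 were below 0 in that contrast. None of these lists had a member called by limma, as in that contrast as a whole. The part of these cell types in the changes of the members was not tested. The endothelial miR-126-3p and the epithelial miR-200 family were above background on 33 of 33 arrays, and the endothelial miR-126-5p on 23 of 33. Of the smooth muscle markers, miR-143 was above background on 33 of 33 and miR-145 on 1 of 33.

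Across the 33 arrays the members varied together to different degrees. The Pearson correlation between 2 members ranged from 0.36, between miR-18a and miR-92a, to 0.84, between miR-20a and miR-19b. miR-19a and miR-20b, from different chromosomes, correlated at 0.79, and miR-19a and miR-19b, which share a seed, at 0.71. Without slide 1 (29 arrays) miR-20a and miR-20b correlated at 0.86, against 0.60 with it, and miR-18a and miR-92a at 0.0031. These are descriptions, since the points share arrays, scaling, slides and groups.

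**Figure D5:**
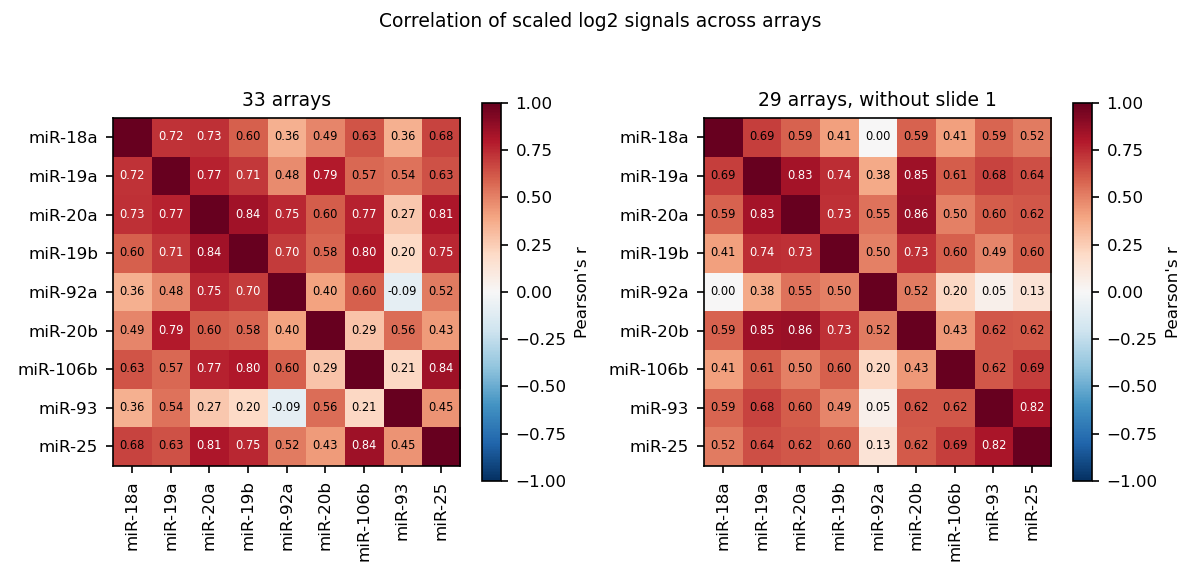
Pearson correlation between pairs of miRNAs across all 33 arrays (left) and across the 29 arrays without slide 1 (right), for the 6 tested members and the third paralog cluster. miR-20a and miR-19b reach 0.84 on the left, and miR-92a is the member least like the others on the right.

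The 3 members above background on every array, miR-20a, miR-19b and miR-92a, were averaged into 1 profile to find the miRNAs most like it among 91 other mouse miRNAs above background on all arrays. Over the 33 arrays the highest correlations were those of miR-15b (0.849), miR-15a (0.816), let-7i (0.803), miR-148a (0.801), let-7g (0.797) and miR-107 (0.788). The median over the 91 was 0.318 and the lowest was -0.660. Without slide 1 the same 6 had correlations of 0.468 to 0.629, so the likeness rested in part on those 4 arrays. The paralog miR-106b ranked next, at 0.776.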

How the data were processed

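Per the labels' protocols, small-RNA-enriched lung RNA carried Cy3 on one-colour Agilent arrays. Spot brightness stands in the deposited files as intensity on a linear scale, background-subtracted by Feature Extraction 10.7.3.1, per the file headers. The authors' deposited table of the series gives log2 values, which correlated at 0.991 to 0.999 with log2 of the scanner median signal. Column medians were 5.41 to 5.43, higher meant brighter, and scaling and centring are unknown, so that table was an alternative.

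Processed signals were averaged over the spots of a probe, leaving out control spots and outlier spots (2.30%). They were scaled per array to an equal 75th percentile over the 156 probes above background on all 33 arrays, given a floor of 1, and log2-transformed. The brightest probe stood for a miRNA. No probe was saturated. One fit of 6 group means over 33 arrays used limma 3.58.1 under R 4.3.3 (tables read by data.table, version 1.17.8) by lmFit and a trended eBayes. Tests were two-sided, with Benjamini-Hochberg adjustment over 172 miRNAs in each of 10 contrasts and a threshold of 0.05. The procedure was tested on simulated data.

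Replicates are individual mice, per the series' design text, and replicate numbers run through the series, so they pair no samples. There were 9 slides and 5 scan days, and the number of arrays limits the precision. Members and lists were chosen with earlier results of these data known. The miRNAs named are the members, passenger strands, the third paralog cluster, other miRNAs of the same hairpin clusters or seeds, and the 6 most correlated with the members. For a miRNA below background throughout a group, a bound was sought in place of a fold. For the normexp alternative, the median spot signal replaced the mean signal. The alternatives without slide 1 and with each member's second probe were chosen after seeing the data. RefSeq sequences matched all 9 members.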

Additional observations from a re-analysis of the deposited data

Results flagged for a closer look

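Of 36 groups of the 6 tested members, 5 held an array set far from the rest by the ratio of its gap to the group's range, and chance does this in about 1 in 20 groups. miR-18a was 2.90 on exposed day 1 replicate 15, below the next exposed value of 3.45. It was 3.99 on control day 3 replicate 2, above the next value of 3.22, and 2.37 on control day 28 replicate 6, below the next value of 3.00. miR-20a was 7.10 on control day 3 replicate 2, above the next value of 6.81. miR-92a was 8.28 on exposed day 3 replicate 4, above the next value of 7.78. Control day 3 replicate 2 and exposed day 3 replicate 4 both lay on slide 1.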

How the results depend on the processing

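Replicate numbers gave no pairs, because none occurs in more than 1 group. Slide does pair each exposed array with a control array of the same day. The main fit did not use this pairing, and slide served as a fixed or random block in alternative fits. The correlation within slides in the random block fit was 0.356. Under the settings tried, 0 members were called in any exposure contrast at days 1, 3 or 28. Of 60 member changes, the sign turned in 31 with normexp, 16 with the percentile over all probes, 14 with the second probe, 12 with no scaling and 11 with the series table, in 2 to 10 under 6 other settings, and in 0 with slide as a random block. Across 172 miRNAs the median change at day 1 was -0.36 with normexp and 0.56 with no scaling. The day 28 minus day 1 difference called 3 members with normexp (miR-18a 0.93, miR-19a 0.61 and miR-20b 0.53, each reversed) and 6 with no scaling (miR-19b -1.27 and miR-92a -1.23 reversed). From day 1 to day 28 in controls, normexp called 6 members (miR-18a -0.93 and miR-20b -0.57 reversed), no scaling 6 (miR-19a 1.17, miR-19b 1.02, miR-20a 1.05 and miR-92a 0.91 reversed) and the authors' values 2 (miR-19a 0.14 reversed). In exposed lungs, the same interval called 2 members with slide as a random block and 1 without slide 1. The mean effect called 1, miR-92a, with the second probe.

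Calls among all miRNAs, in place of 0 unless given, moved as follows. At day 1 they were 3 by total gene signal, 4 by quantile, 3 by the percentile over all probes, 6 with no scaling, 2 by the mean over probes, 1 among miRNAs above background on all arrays, 7 with no filter, 2 with the random block and 2 without slide 1. At day 3 there was 1 without slide 1. At day 28 there was 1 each with normexp, quantile, a floor of 10, no filter and without slide 1. For the mean effect, in place of 1, there were 2 by total gene signal, quantile and mean over probes, 0 by the percentile over all probes, the floor, the detected miRNAs and the series table, 14 with the fixed block, 4 with the random block, 6 without slide 1 and 3 with the second probe. The day 28 difference had 97 with normexp, 119 with no scaling and 1 by the percentile over all probes and with no filter, and the day 3 difference had 1 by total gene signal. In control lungs at day 28, in place of 12, there were 127 with normexp, 2 by total gene signal, 0 by quantile, 5 by the percentile over all probes, the mean over probes and the series table, 142 with no scaling, 32 with no filter, 19 with the random block and 4 without slide 1, and at day 3 there was 1 with no filter. In exposed lungs at day 28 there was 1 by total gene signal and among the detected miRNAs, 9 with the random block and 4 without slide 1. The cause was not tested.

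Leaving out 1 array at a time, the calls among members were 0 to 0 in all 10 contrasts. Among all miRNAs they were 0 to 2 at day 1, 0 to 0 at day 3, 0 to 4 at day 28, 0 to 5 for the mean effect, 0 to 1 and 0 to 0 for the day 28 and day 3 differences, 0 to 22 and 0 to 0 for control lungs at days 28 and 3, and 0 to 2 and 0 to 1 for exposed lungs at days 28 and 3. Signal over background limits miR-18a, and miR-17 and miR-363 could not be assessed.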
